A study of Mus musculus with 16 samples.

Results

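The translation initiation factors were taken by name, as the genes whose symbol starts with Eif and a number from 1 to 6, without the Y-linked Eif2s3y and without processed pseudogenes. The rule gave 54 of the 24972 genes listed in every library, on 19 chromosomes, and used no measured value. RNA was sequenced in bulk from CA1, CA3 and the dentate gyrus (DG) of the dorsal hippocampus of 3 trained and 3 untrained mice. The mice were 3 to 4 months old, had a C57BL/6 background and all carried ArcCreERT2::eYFPflx, in which the promoter of the activity gene Arc drives an inducible Cre and Cre turns on a yellow reporter. Tamoxifen dosing is not given in the sources used here. In active place avoidance a mouse on a rotating arena learns to stay out of an unmarked zone that gives a mild foot shock. Trained mice had the shock on during 4 trials of 30 min over 2 days, untrained mice rode the same arena with the shock off, and both groups had a 10 min retention test without shock on the next day and gave tissue 60 min after it. The pieces of a subregion were pooled within an animal, so each library is labelled as 1 animal and 1 subregion. There were 3 trained and 3 untrained libraries of CA1, 3 and 2 of CA3, and 3 and 2 of DG, 16 in all. Libraries are named below by subregion, group and the number in their label.

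Initiation is the step at which a ribosome is set on the start codon of an mRNA. The small subunit binds eIF1, eIF1A, eIF3, eIF5 and the eIF2 complex, which brings the initiator tRNA, while eIF4F (the cap-binding eIF4E, the scaffold eIF4G and the helicase eIF4A, helped by eIF4B and eIF4H) prepares the mRNA, and eIF5B then joins the large subunit. Phosphorylation of eIF2 by 4 kinases blocks its recycling by eIF2B, and the 4E-binding proteins hold back eIF4E. Both controls set how much new protein neurons make, and the synthesis of new protein is needed for lasting hippocampal memory.

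Promoters are shown because the members serve 1 process and some moved with training. RefSeq windows (GRCm38.p6, 250 bases before to 50 after the start) were found for 42 of the 54 members by symbol. In the 250 bases before the start, the GC box (GGGCGG, either strand), to which Sp factors bind, stood in 30 of 42 member windows (71.4%) and in 32.9% of all 27025 windows. The ETS motif CCGGAAG stood in 10 member windows (23.8%) against 7.05% of all, and the E-box CACGTG in 7 (16.7%) against 6.05%. The CRE TGACGTCA, to which the activity-regulated factor CREB binds, stood in 0 member windows and in 1.62% of all, the YY1 motif AAGATGGC in 1 (2.38%) against 1.59%, the palindromic NRF1 motif in 1 (2.38%) against 0.781%, and an interferon response element (GAAA, any 2 bases, GAAA) in 2 (4.76%) against 3.04%. All motifs were read on both strands, and a motif may overlap another. The median G+C content was 59.6% for members and 52.0% for all windows, and the median count of CpG was 19 against 6, and the shares were not matched for base composition. The sequences of Eif4h, Eif4b and Eif3a, 3 of the members called with training, are printed here, 5′ to 3′ on the strand of the gene. The GC box, E-box and interferon response element are in capitals. The Eif4h stretch is chr5:134639491-134639659 (minus strand, 169 bases, cut where an annotated exon starts), the Eif4b stretch chr15:102073523-102073772 (plus strand, 250 bases) and the Eif3a stretch chr19:60790694-60790943 (minus strand, 250 bases).
Eif4h: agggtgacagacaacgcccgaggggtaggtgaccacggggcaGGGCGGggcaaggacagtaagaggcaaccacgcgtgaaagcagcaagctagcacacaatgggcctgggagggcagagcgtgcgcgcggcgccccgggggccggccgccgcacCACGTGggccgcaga
Eif4b: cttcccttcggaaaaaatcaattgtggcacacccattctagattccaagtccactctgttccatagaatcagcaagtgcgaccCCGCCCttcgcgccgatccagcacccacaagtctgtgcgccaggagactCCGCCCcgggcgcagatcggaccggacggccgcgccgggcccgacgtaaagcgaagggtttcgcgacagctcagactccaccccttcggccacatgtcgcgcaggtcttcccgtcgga
Eif3a: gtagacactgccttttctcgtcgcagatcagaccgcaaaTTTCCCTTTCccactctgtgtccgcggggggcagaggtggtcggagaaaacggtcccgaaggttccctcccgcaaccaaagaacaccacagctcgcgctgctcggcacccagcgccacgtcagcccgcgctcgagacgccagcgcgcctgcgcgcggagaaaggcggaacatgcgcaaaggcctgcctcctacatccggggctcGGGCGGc
The Eif4h stretch held 1 GC box and 1 E-box, the Eif4b stretch 2 GC boxes in the reverse orientation, and the Eif3a stretch 1 GC box and 1 interferon response element in the reverse orientation. Other members called with training held fewer. The Eif5b stretch (116 bases), not printed, held none of the motifs. The 250 bases before the start held 0 kinds of motif for Eif4g3 and 1 for Eif2s3x. These matches are descriptions of letters, not of bound sites.

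All values are the deposited normalized estimated counts, which have no unit beyond reads of a scaled library. Library sums lay between 7607326 and 7984931, and depth was read only roughly, as 2539301 to 15120799 reads, from the commonest low value of each library. The members took 0.516% to 0.558% of each sum. The libraries differ in ways that touch the results. Xist, the X-inactivation RNA of female cells, was 7601 to 19592 in all 9 trained libraries and 25.5 to 52.4 in 6 of 7 untrained ones, while the methods state 2 female and 1 male trained mice and 1 female and 2 male untrained mice. Training therefore runs with sex-linked expression and the 2 cannot be told apart in most libraries. The CA3 library labelled untrained 1 had Xist at 10587 together with the Y-linked Ddx3y at 201 and Eif2s3y at 82.5, and the DG library labelled trained 3 had Xist at 7601 with Ddx3y at 255 and Eif2s3y at 114, so both hold female and male transcripts. CA1 trained 1, CA1 trained 3 and CA3 trained 3 also held both, at lower Y-linked levels: with Xist at 12112 to 18314, Ddx3y was at 70.9 to 101 and Eif2s3y at 28.3 to 50.2, against 1.66 to 12.9 and 0 to 3.35 in the other 5 trained libraries. Results are also given without the first 2 and, as a comparison added after the data were seen, without all 5. Between 7567 and 9759 genes were listed at 0 in 7 libraries (all trained CA1, trained 1 and 2 of CA3, both untrained DG) and 3124 to 5944 in the other 9. The subregion labels were not borne out by the granule cell genes, since Prox1 was 3052 to 3861 in CA1, 2690 to 4786 in CA3 and 3292 to 4183 in DG, and C1ql2 and Dsp overlapped as well. The 4 CA1 pyramidal markers summed to 1307 to 1721 in trained and 2532 to 3987 in untrained CA1, against 835 to 1553 elsewhere. In bulk tissue fewer cells of a type and less RNA per cell cannot be told apart.

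Nearly all members were expressed. A gene entered a test where it had a value of at least 10 in at least 3 CA1 libraries, or in at least 2 libraries in every other fit, which left 52 of 54 members (51 in CA1). Eif3j1, a loosely bound eIF3 subunit, was listed at 0 in all 16 libraries, whereas its near copy Eif3j2 was at 299.5 to 377. Of the 31-base words of Eif3j2, 93.95% also occur in Eif3j1, so reads of the pair may have gone to either and both values are uncertain. Eif4e1b, the egg form of the cap-binding protein, was at 0 to 3.9, and Eif4ebp1, a 4E-binding protein, at 0 to 20.3. The median member had a mean value of 409, against 163 for all genes tested over the 16 libraries.

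Levels between genes were compared per kb of transcript (the median length of a gene's annotated coding transcripts). The helicase Eif4a2 was the highest member at 1859 ± 102 per kb (SD over 16 libraries), and its paralogue Eif4a1 was at 1108 ± 46.1. The highest of each role were Eif1 (start codon choice) at 1240 per kb, Eif2s3x (the gamma subunit of eIF2, which binds the tRNA) at 532, Eif2b5 (the exchange subunit of eIF2B) at 113, Eif2a (a separate factor that can deliver initiator tRNA) at 139, and Eif2ak1 (the heme-sensing kinase) at 102. Among the rest they were Eif3k (a small eIF3 subunit) at 486, Eif4g2 (a scaffold without the eIF4E site) at 823, Eif4enif1 (the eIF4E transporter) at 121 and Eif5a (needed mainly for peptide bond formation) at 1034. With the longest transcripts, Eif3h at 447 per kb was above Eif3k at 414. Eif4e came out at 1141 per kb with its median length but at 181 with its longest transcript, the only one of the first 9 to leave that range when the longest transcripts were used. Apart from Eif3j1, at 0 in all libraries, the lowest members were Eif2ak2 (the double-stranded RNA kinase PKR) at 11.2, Eif4ebp1 at 4.6 and Eif4e1b at 1.5 per kb.

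Pairs of products that do the same step were unequal in the same way in each library. Eif4a2 ranged from 3747 to 4451 and Eif4a1 from 1792 to 2124, as values of the library and not per kb. Eif1 was at 1434 to 1776 and Eif1b at 494 to 605. Eif5a was at 1148 to 1497 and its brain and tumour form Eif5a2 at 380.2 to 528. The ranges of each pair do not meet. Eif4ebp2, the 4E-binding protein known as the main one of brain, was at 172 to 271, above Eif4ebp1 in all libraries. Of the scaffolds, Eif4g2 was at 4431 to 5092, Eif4g1 at 2215 to 2773 and Eif4g3 at 1979 to 2634. The last pair overlap as values. Per kb they were 433 and 388.

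**Figure D1:**
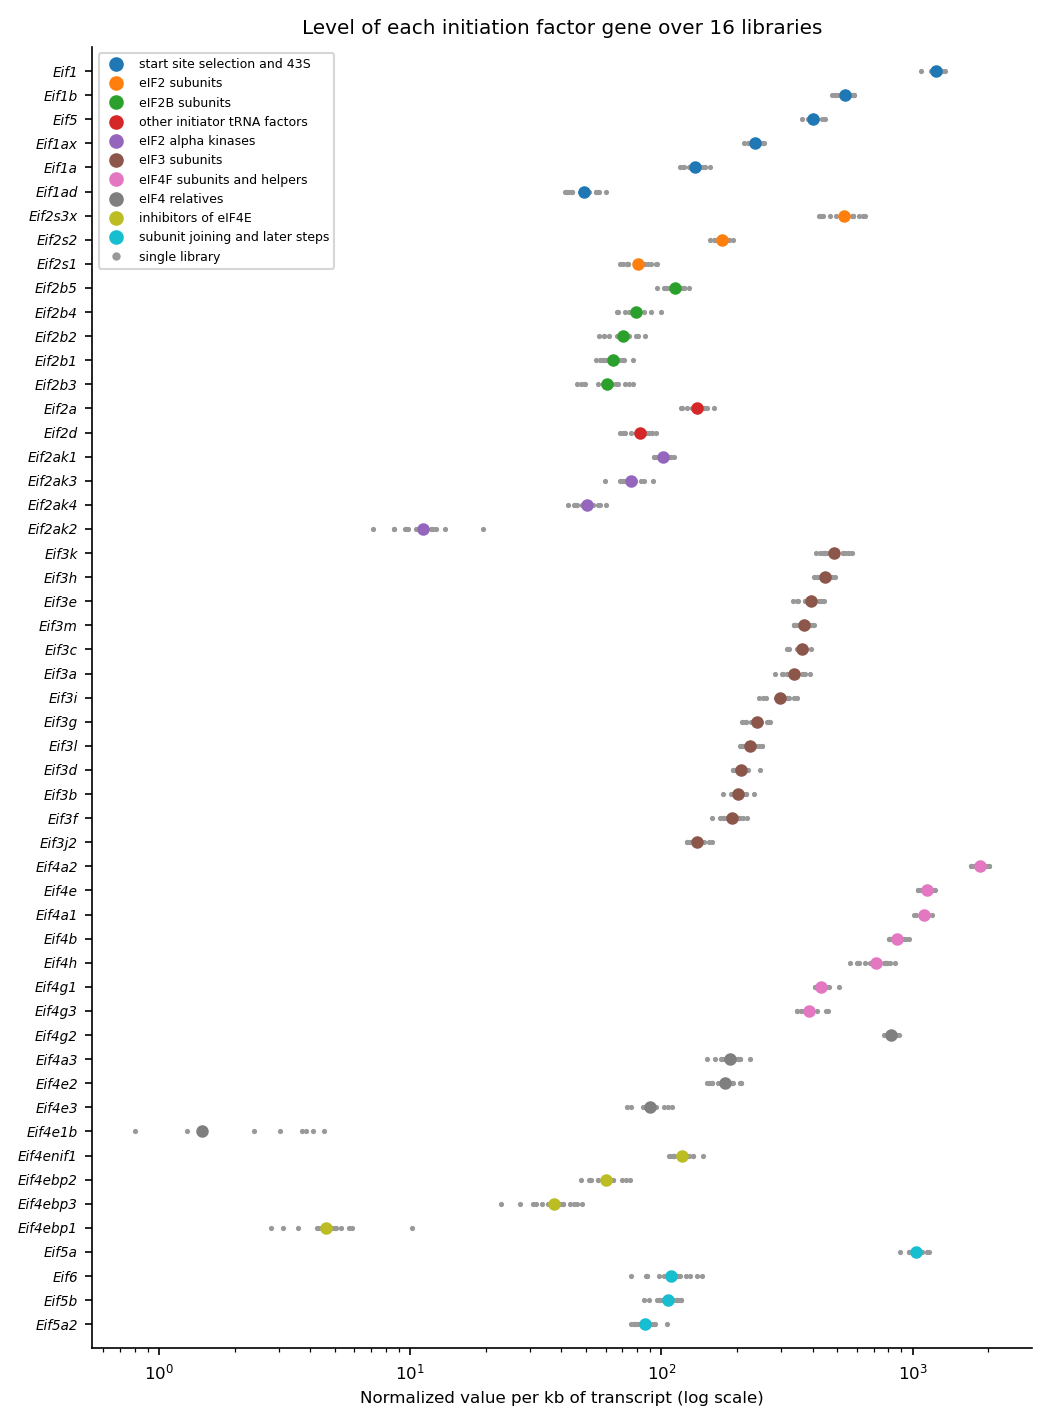
Level of each translation initiation factor in each of the 16 libraries, as normalized estimated count per kb of transcript on a log axis, grouped by the role of its product. Eif3j1, at 0 in all libraries, and single values of 0 are not drawn. Eif4a2 is the highest at a mean of 1859 per kb. Of the members drawn, Eif2ak2, Eif4ebp1 and Eif4e1b are the lowest at 11.2, 4.6 and 1.5, and the 16 points of most members lie close together.

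The members varied little between libraries. Among members above 0 in every library, the highest library was less than 1.5 times the lowest for 40, and 2 or more times for 2, Eif2ak2 (30.6 to 84.2) and Eif4ebp3 (17.1 to 35.9). Eif4ebp1, Eif4e1b and Eif3j1 were at 0 in at least 1 library and have no such ratio. The steadiest were Eif4g2, Eif4e and Eif4a1, with ratios of 1.15, 1.17 and 1.18. The median SD of the log2 value was 0.122 over members and 0.191 over all genes tested. Among genes with a mean of at least 100 it was 0.118 for 48 members and 0.139 for all 8883 genes. Levels were not matched beyond that cut, and the part of level in the gap was not tested.

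In CA1, 2 of 51 members rose with training and none fell, Eif2s3x and Eif4h. The share called, 3.92%, lies near the 5.23% of all genes tested. Tests were limma fits on log2(value + 2) over all genes, with p-values adjusted over all of them by the Benjamini-Hochberg method and a threshold of 0.05. Fold changes are trained over untrained on that log2 scale. Eif2s3x was at 1017, 1006 and 1025 in the untrained and at 1297, 1375 and 1375 in the trained CA1 libraries. The groups are well apart, and the difference was 0.41 ± 0.0588 (SE; adjusted p = 0.000277). Eif4h, whose product stimulates the helicase eIF4A, was at 1534, 1436 and 1742 in the untrained and 1979, 1970 and 1826 in the trained libraries. Again every trained library was higher, and the difference was 0.30 ± 0.0665 (adjusted p = 0.0118). Leaving out trained 1, trained 2, untrained 1 or untrained 2 lost the Eif4h call (adjusted p = 0.0588, 0.0758, 0.0855 and 0.0624). Without trained 1 and 3, which leaves trained 2 alone with its spread taken from the untrained group, the differences were 0.44 for Eif2s3x (adjusted p = 0.0442) and 0.33 for Eif4h (adjusted p = 0.225). Eif2s3x is X-linked, and its trained values are those of libraries with high Xist. Beside both calls, the summed markers of 4 cell types separated trained from untrained CA1, though not every gene of a list did. The CA1 pyramidal sum was lower (given above, with 3 of 4 genes lower and Man1a overlapping). The CA3 pyramidal sum was higher, at 1644 to 1732 against 1237 to 1351, with Grik4 and Cpne4 higher, Coch lower and Iyd overlapping. The astrocyte sum was lower, at 9548 to 9908 against 10282 to 10705, where of 5 genes Aqp4 was lower and 4 overlapped. The endothelial sum was higher, at 521 to 560 against 476 to 479, with 2 of 3 genes higher. The count of genes listed at 0 also separated these libraries, at 8323 to 9759 in trained and 3124 to 5425 in untrained CA1. The part of the marker sums and of this count in the calls was not tested.

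The other CA1 members stayed under the threshold. Eif2ak2 was at 84.2, 52.1 and 59.5 in untrained and at 46.5, 41.2 and 37.2 in trained CA1 libraries, lower in all trained ones (-0.60 ± 0.221, adjusted p = 0.136). Eif5, which makes eIF2 hydrolyse GTP at the start codon, had a difference of 0.14 (adjusted p = 0.257). These 4 are all members with an unadjusted p under 0.05. For 7 members the groups did not overlap in CA1, 13.7% against 24.0% of all genes. The 95% interval of the difference lay within 1.25-fold for 35 of 51 members, and the median difference was 0.0102 on the log2 scale (0.000317 for all genes).

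In CA3 no member passed the threshold (limma, 0 of 52, against 0.852% of all genes; 7 members had an unadjusted p under 0.05). Eif4h was nearest, at 1645 and 1549 in the untrained and 2062, 1987 and 2021 in the trained libraries (0.34 ± 0.0719, adjusted p = 0.0594). Without untrained 1 and trained 3, which leaves 1 untrained library whose spread is taken from the trained ones, it was 0.39 (adjusted p = 0.287). Eif2s3x was at 1291 and 1044 in the untrained and 1377, 1532 and 1369 in the trained libraries (0.29 ± 0.0996, adjusted p = 0.194). The higher untrained value is that of untrained 1, with Xist at 10587. Leaving out 1 labelled mouse at a time, the difference of Eif2s3x in CA3 lay between 0.14 and 0.45. Eif4b, a helper of eIF4A that S6 kinase phosphorylates, was at 2543 and 2489 in the untrained and 2202, 2206 and 2174 in the trained libraries (-0.20 ± 0.0689, adjusted p = 0.203).

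With the library number as a block, Eif4h and Eif4b were called in CA3 (limma, adjusted p = 0.000461 and 0.0361). Nothing in the labels or methods says that these numbers pair trained with untrained mice. In the same libraries 3 marker sums were lower in trained CA3 without overlap. The choroid plexus sum was 230 to 308 against 769 to 1077 (3 of 4 genes lower), the leptomeninges sum 121 to 160 against 203 to 268 (3 of 4 lower) and the astrocyte sum 8688 to 9640 against 9862 to 10891 (2 of 5 lower). Their part in the values of Eif4h and Eif4b was not tested. Groups did not overlap for 20 members in CA3, 38.5% against 33.9% of all genes. With 3 against 2 libraries, intervals were wider, and that of 26 of 52 members lay within 1.25-fold. The median difference over members was -0.0161 (all genes -0.00577).

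In DG, 4 of 52 members passed, 1 higher and 3 lower in trained mice, 7.69% against 3.39% of all genes. The lower ones act at different steps: Eif4g3 is a scaffold of eIF4F, Eif3a the largest eIF3 subunit and Eif5b the GTPase of subunit joining. Eif4g3 was at 2634 and 2579 in the untrained and 2055, 2077 and 1979 in the trained DG libraries. The 3 trained values lie close together and far from both untrained ones, a difference of -0.36 ± 0.0620 (limma, adjusted p = 0.00810). Eif3a was at 1912 and 1995 in the untrained and 1563, 1455 and 1546 in the trained libraries (-0.36 ± 0.0670, adjusted p = 0.0107).

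Eif5b was at 877 and 936 in the untrained and 781, 667 and 699 in the trained DG libraries (-0.34 ± 0.0856, adjusted p = 0.0381). The exons of Eif5b overlap those of Rev1 on the other strand (mean value 451), and the strand setting of the counting is not given in the sources used here. Eif4h, the member that rose, was at 1553 and 1727 against 1954, 2172 and 2015 (0.32 ± 0.0717, adjusted p = 0.0241). None of these groups overlap. Over the DG, groups did not overlap for 18 members, 34.6% against 35.6% of all genes, and the median difference was 0.0229 (all genes 0.00083).

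The DG calls depended on the processing and on single libraries. After adjusting for GC content and transcript length, Eif4g3 alone was called (-0.30, adjusted p = 0.0448), and Eif4h, Eif3a and Eif5b missed (adjusted p = 0.0634, 0.0639 and 0.222). Eif5b also missed without robust estimation and with the replicate block (0.0588 and 0.0823). Without trained 2 none of the 4 passed (adjusted p = 0.0574 for Eif4g3, 0.0776 for Eif3a, 0.142 for Eif4h and 0.174 for Eif5b). Without trained 3, which held both Xist and Y-linked transcripts, Eif3a and Eif4g3 passed (adjusted p = 0.0420 and 0.0461) and Eif4h and Eif5b did not (0.0902 and 0.145). Eif4h and Eif5b also missed without trained 1 (limma, adjusted p = 0.0573 for both). Eif4h missed without untrained 1 and Eif5b without untrained 3. Leaving out untrained 1 or 3 leaves 1 untrained DG library, whose spread is then taken from the trained ones. In the same libraries 5 marker sums separated trained from untrained DG, 4 lower and 1 higher in trained. The endothelial sum was 253 to 267 in trained and 411 to 504 in untrained DG (3 of 3 genes lower), and the granule cell sum 7486 to 7835 and 9353 to 9653 (3 of 5 lower). The oligodendrocyte sum was 13156 to 14135 and 14851 to 19172 (Mbp lower, 4 of 5 genes overlapping), and the CA3 pyramidal sum 1679 to 1845 and 1856 to 1948 (Cpne4 lower, Iyd higher and 2 overlapping). The interneuron sum was the higher one, at 3539 to 3713 against 3186 to 3457 (Gad1 and Slc32a1 higher, 3 overlapping). The count of genes listed at 0 was 3479 to 5944 in trained and 7567 to 8636 in untrained DG. The part of the marker sums and of this count in the differences was not tested.

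Among members just over the threshold in DG, Eif2s3x was at 1176 and 1109 in the untrained and 1509, 1451 and 1265 in the trained libraries (0.30 ± 0.0808, adjusted p = 0.0528). The highest member per kb, Eif4a2, had a difference of 0.20 ± 0.0589 (adjusted p = 0.0658). Eif2ak2, which was low in trained CA1, was at 37.2 and 30.6 in untrained and at 45.4, 52.6 and 54.8 in trained DG libraries (0.56 ± 0.245, adjusted p = 0.212). In all, 10 members had an unadjusted p under 0.05 in DG, and the interval of 23 lay within 1.25-fold.

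**Figure D2:**
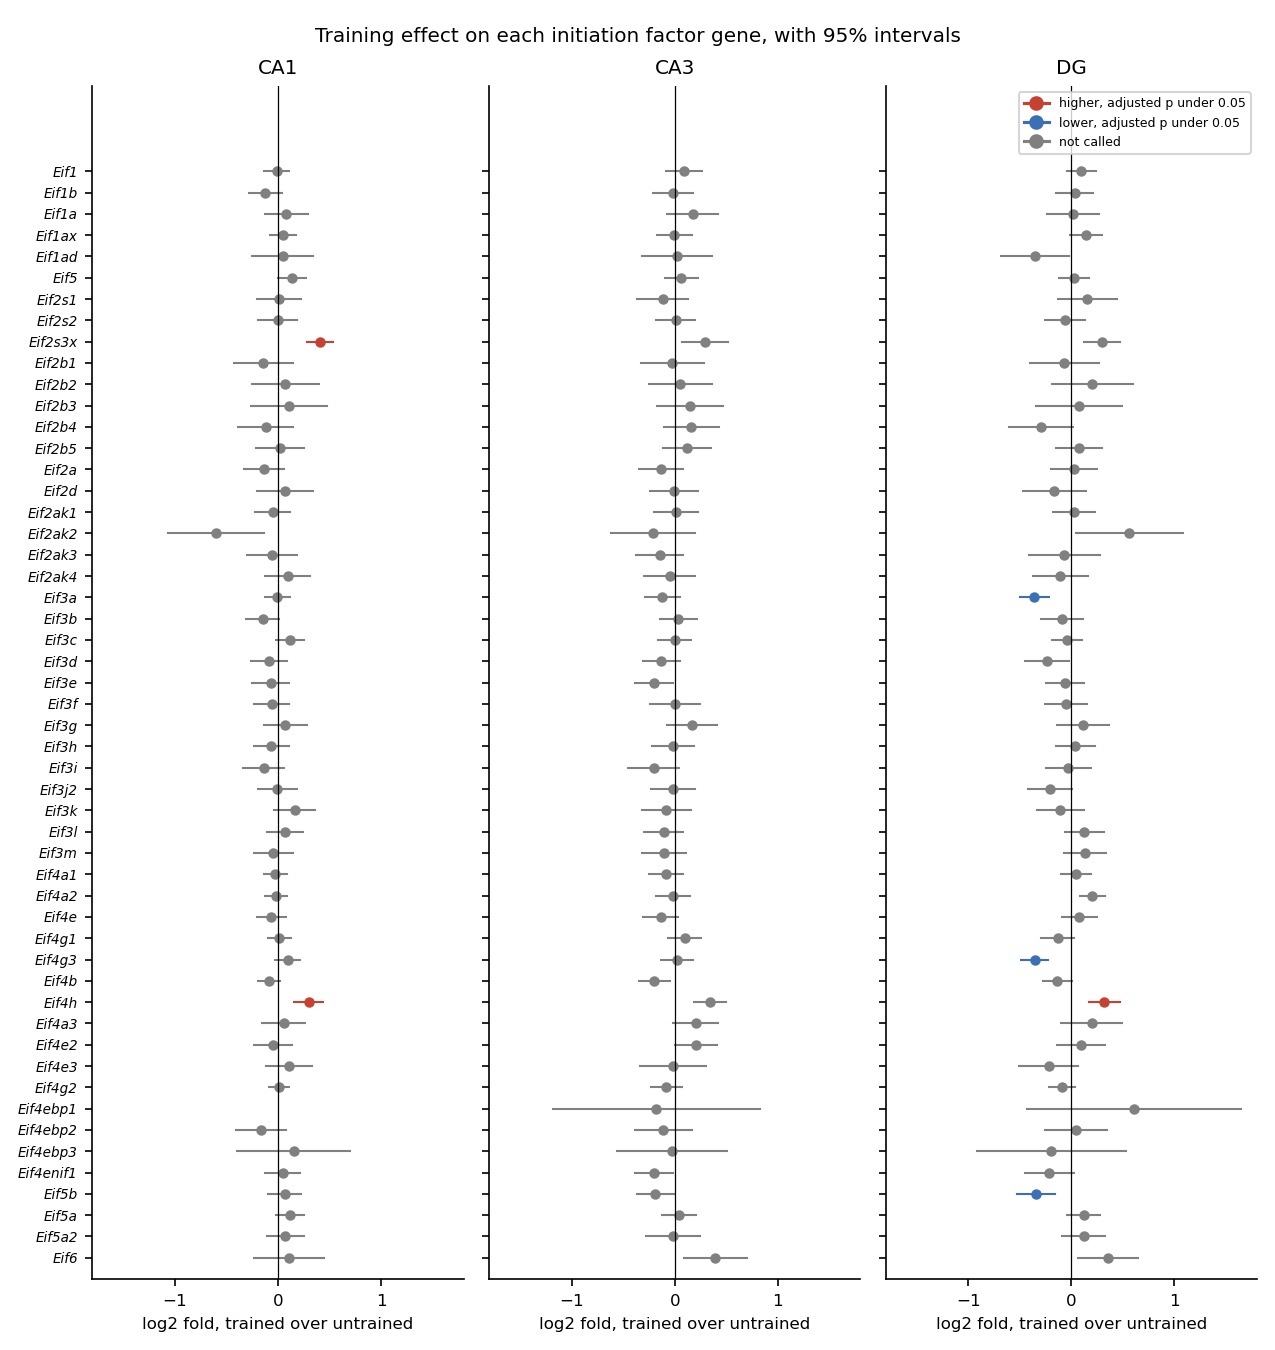
Difference between trained and untrained libraries for each tested member in CA1, CA3 and DG, as log2 fold change of value + 2 with its 95% interval from limma. Eif4h lies at 0.30, 0.34 and 0.32 and Eif2s3x at 0.41, 0.29 and 0.30, while Eif4g3 and Eif3a depart from 0 in DG, both at -0.36.

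Over all 16 libraries, with subregion in the fit, 4 of 52 members passed, 7.69% against 10.3% of all genes. Eif4h rose by 0.32 ± 0.0428 (limma, adjusted p = 0.000146), from 1598 ± 111 (SD, n = 7) to 1999 ± 92.1 (n = 9). Its lowest trained library, at 1826, was above its highest untrained one, at 1742. Eif2s3x rose by 0.34 ± 0.0485 (adjusted p = 0.000239), from 1095 ± 105 to 1394 ± 88.8, and overlapped only in that CA3 untrained 1, at 1291, was above the lowest trained library, at 1265.

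Eif4b fell by 0.14 on the log2 scale (SE 0.0355, adjusted p = 0.0141), from 2477 ± 75.6 to 2254 ± 84.9. Eif3a fell by 0.15 (SE 0.0483, adjusted p = 0.0463), from 1832 ± 121 to 1649 ± 109, with a difference of -0.01 in CA1. After adjusting for GC content and transcript length, 9 members were called, a count given without the share of all genes under that adjustment. They were Eif4h, Eif2s3x, Eif4b, and 6 that had not passed, with Eif1ax (0.20), Eif5a2 (0.20) and Eif5 (0.17) higher and Eif3i (-0.22), Eif3d (-0.20) and Eif1b (-0.15) lower. Eif3a was then at -0.05 and lost its call (adjusted p = 0.604), as it did without the filter on low values, without robust estimation and with the replicate block (0.0702, 0.0525 and 0.0648). The calls of Eif4h and Eif2s3x held with any 1 labelled mouse left out, and without all 5 libraries holding both Xist and Y-linked transcripts (0.35 and 0.42, adjusted p = 0.00583 and 0.000244), where Eif4b and Eif3a missed (0.0985 and 0.103). Eif4b missed without trained 1, trained 2, untrained 1 and untrained 2 (adjusted p = 0.0821, 0.0768, 0.159 and 0.0576), and Eif3a without any of trained 1, 2 and 3 and untrained 1 and 2 (0.0581, 0.143, 0.118, 0.159 and 0.145).

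By their labels these libraries come from 6 mice and are not 16 independent animals. The labels are open to doubt, since those named untrained 1 had Xist at 26.1 in CA1, 25.5 in DG and 10587 in CA3, and values per mouse or without a mouse rest on them. With the mean of each labelled mouse, 3 against 3, a comparison added after the data were seen, no gene passed (limma, 0 members and 0 genes, with 7 members and 2809 genes at an unadjusted p under 0.05). The differences of Eif4h and Eif2s3x were then 0.31 and 0.35 (adjusted p = 0.25 for both). With a score of sex-linked transcripts in the fit, again no gene passed (limma, with 3 members and 1702 genes at an unadjusted p under 0.05). The calls of all 4 members were lost in that fit, with Eif4h at 0.25 (adjusted p = 0.326, unadjusted p = 0.0232) and Eif2s3x at 0.0333 (adjusted p = 0.945).

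**Figure D3:**
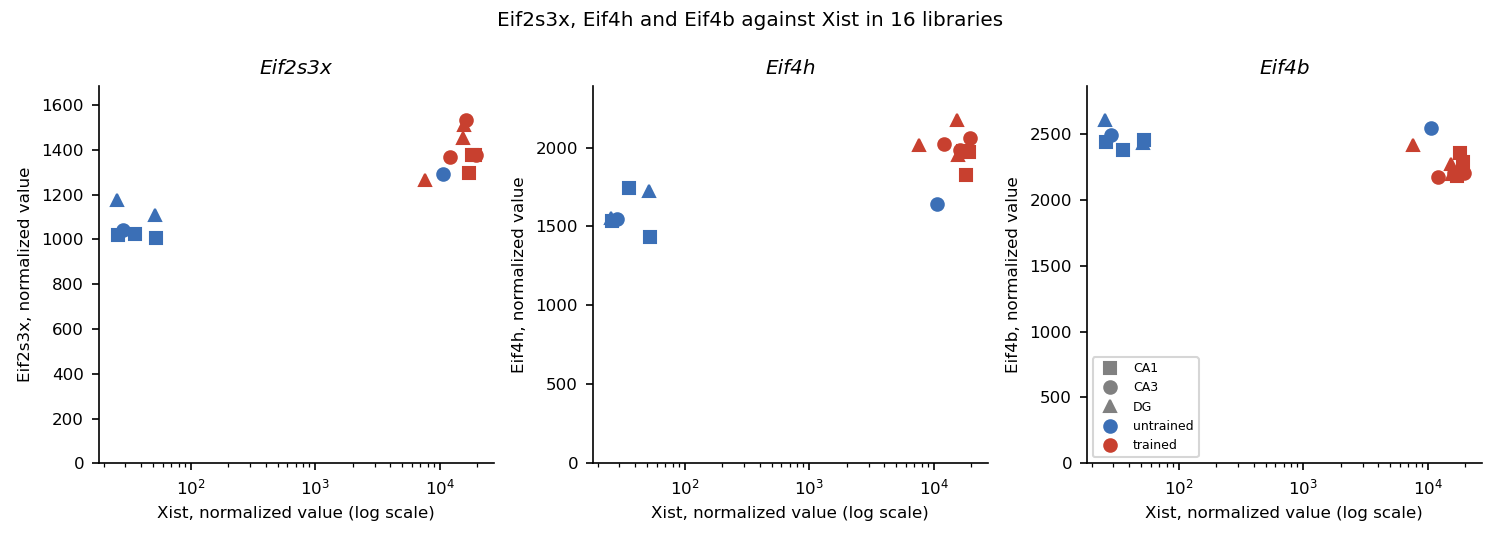
Values of Eif2s3x, Eif4h and Eif4b against Xist (log axis) in the 16 libraries, coloured by training and shaped by subregion. Nearly all untrained libraries stand at low Xist and all trained ones at high Xist, and the untrained CA3 library with Xist at 10587 has Eif2s3x at 1291, above the other untrained libraries, but Eif4h at 1645 and Eif4b at 2543, within their range.

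In CA3 untrained 1, Eif2s3x at 1291 was above the other 6 untrained libraries, at 1006 to 1176, whereas Eif4h at 1645 lay inside their 1436 to 1742 and Eif4b at 2543 inside their 2379 to 2604. The other X-linked member, Eif1ax, the eIF1A gene of the X, was at 1099 to 1330 in all libraries and did not pass in any comparison as fitted here (0.06 ± 0.0408 over all subregions, adjusted p = 0.363, but 0.00568 after adjusting for GC content and transcript length). Between CA1 and DG, Eif2s3x had a difference of -0.11 (adjusted p = 0.349) and Eif1ax of -0.04 (0.708), and their interactions with training were 0.11 (0.665) and -0.10 (0.640). Of the 31-base words of Eif2s3x, 35.3% occur in other genes, nearly all in Gm2223. For Eif4h, Eif3a and Eif4g3 that share was 0.43%, 0.02% and 0.23%, and for Eif4b 5.29%.

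Eif3d and Eif6 came next, with opposite signs, and did not pass. Eif3d, the eIF3 subunit that can bind the cap, was at 388 to 471 in the 7 untrained and 365 to 388 in the 9 trained libraries, with every trained library under the lowest untrained one by a small margin (-0.14 ± 0.0480, adjusted p = 0.0539). With Eif4h it made 2 members without overlap over all libraries, 3.85% against 1.06% of all genes. Eif6, which keeps the large subunit apart, had a difference of 0.27 (adjusted p = 0.0596), with 109 in CA1 trained 3 below all 7 untrained libraries. Both genes have an antisense gene on the other strand, Gm17638 and Gm16098.

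By role, 1 of 3 eIF2 subunits rose (Eif2s3x, with Eif2s1 at 0.02 and Eif2s2 at -0.02), and 1 of 7 eIF4F members rose and 1 fell. Of 13 eIF3 subunits, 1 fell, and 9 had a difference below 0, as had 32 of all 52 members. Of all genes 10.3% passed and 47.8% had a difference above 0. No member of the eIF2B subunits, the eIF2 kinases, the eIF4E inhibitors, the start site factors or the late factors passed over all subregions. The pairs gave 0.05 for Eif4a2 and -0.02 for Eif4a1, 0.05 for Eif1 and -0.04 for Eif1b, and 0.09 for Eif5a and 0.06 for Eif5a2. The scaffolds gave -0.01 for Eif4g1, -0.05 for Eif4g2 and -0.07 for Eif4g3, and Eif4ebp1 and Eif4ebp2 both gave -0.08, all without passing. Of the highest members of the other roles, Eif2b5 gave 0.06, Eif2a -0.09, Eif2ak1 -0.01, Eif3k 0.0036 and Eif4enif1 -0.11, also without passing. For 46 of 52 members the interval lay within 1.25-fold, and the median was -0.0179 (all genes -0.00914).

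Of 51 members tested in each subregion, 11 had a difference above 0 in all 3 and 8 below 0 in all 3, as had 20.1% and 19.7% of all genes tested in each. Eif2s3x and Eif4h, 2 members, had every trained library above every untrained one within each subregion, as had 1.77% of all genes, and Eif3d and Eif4b, also 2, every trained one below, as had 1.41%.

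**Figure D4:**
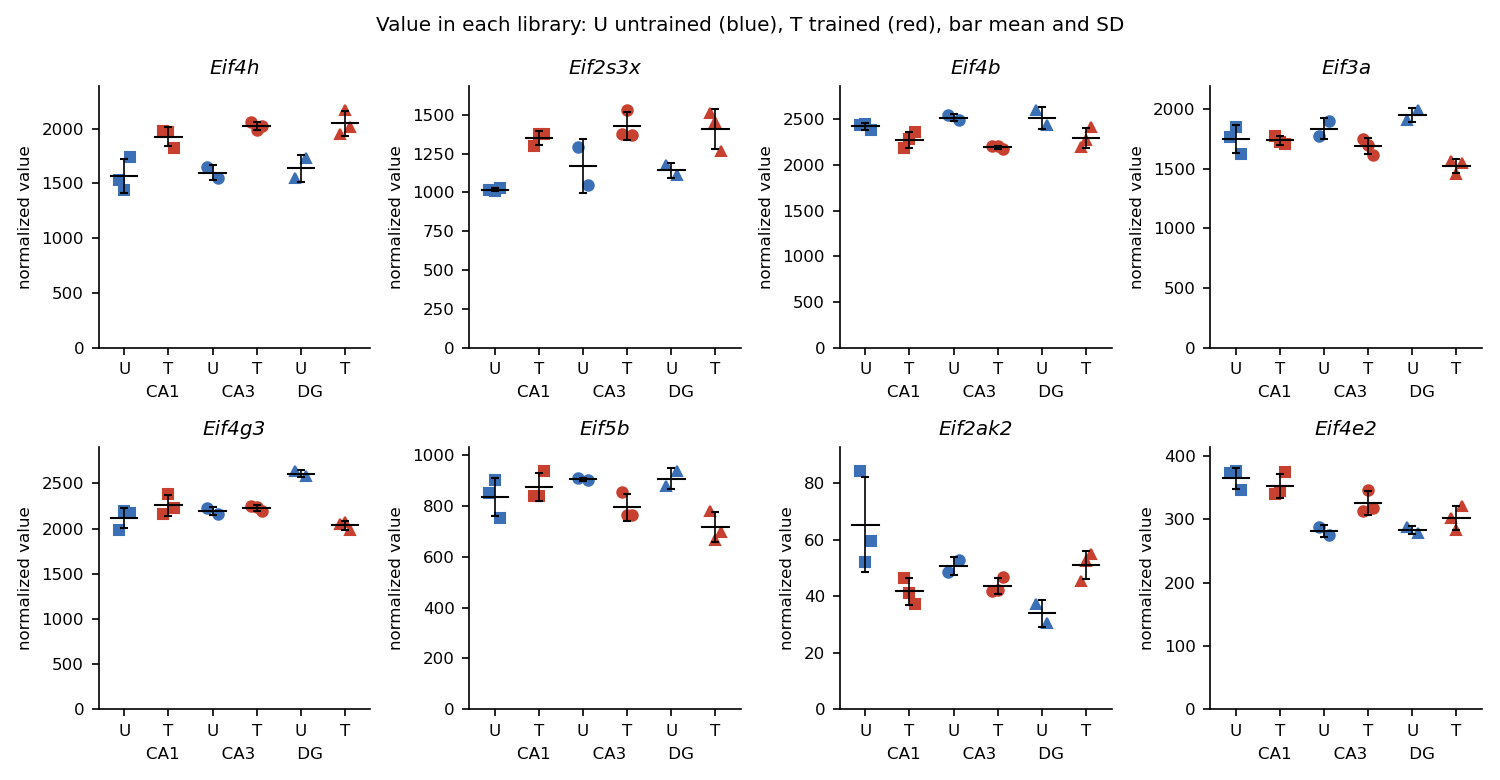
Normalized estimated count of 8 members in each library, by subregion and training, with the mean and SD of each group. Eif4h and Eif2s3x are higher and Eif4b lower in the trained libraries of each subregion, Eif4g3, Eif3a and Eif5b are lower in trained DG, and Eif4e2 has its highest means in CA1.

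Between subregions, 1 of 52 members differed between CA1 and DG, 1.92% against 1.95% of all genes. Eif4e2, the cap-binding homologue that represses translation, was at 340 to 376 with a median of 360 in the 6 CA1 libraries, at 276 to 347 in CA3 and at 279 to 321 with a median of 288 in DG. The CA1 and DG ranges do not meet, and the difference was 0.29 ± 0.0660 (limma, adjusted p = 0.0228). It was the 1 member without overlap (2.47% of all genes had none). The call was lost without any mouse but trained 3 (adjusted p = 0.0595 to 0.0892) and in trained libraries alone. In untrained libraries alone its difference was 0.36 and missed (adjusted p = 0.0784), and Eif4g3 passed there, lower in CA1 (-0.30, adjusted p = 0.0388). After adjusting for GC content and transcript length, Eif4e2 and also Eif1b (-0.20, adjusted p = 0.0339) were called.

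Between CA1 and CA3 none of 52 members passed (limma; 4 at an unadjusted p under 0.05, and 0.211% of all genes called). The nearest were Eif4e2 (0.23, adjusted p = 0.155), Eif3f (0.17, adjusted p = 0.367) and Eif2s3x (-0.13, adjusted p = 0.505). Between CA3 and DG none passed, as for all genes (0%). There 3 members had an unadjusted p under 0.05, Eif1 (-0.11), Eif3l (-0.13) and Eif3e (-0.14), each with an adjusted p of 0.975. Intervals within 1.25-fold were found for 41 members between CA1 and DG, 43 between CA1 and CA3 and 47 between CA3 and DG. With granule cell genes at like levels in the 3 subregions, these contrasts describe the libraries as labelled.

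The difference between trained and untrained libraries itself differed between CA1 and DG for 3 of 52 members, 5.77% against 2.75% of all genes. Eif4g3 was at 1986, 2195 and 2169 in untrained and 2160, 2384 and 2226 in trained CA1, where training made little difference, but fell in DG as given above. The interaction was 0.45 ± 0.0847 (limma, adjusted p = 0.0115). Eif3a was at 1769, 1853 and 1624 in untrained and 1775, 1728 and 1709 in trained CA1, against its fall in DG (interaction 0.35 ± 0.0912, adjusted p = 0.0357). Eif2ak2 fell short of its untrained level in every trained CA1 library and exceeded it in every trained DG library (interaction -1.16 ± 0.300, adjusted p = 0.0356, and 0.0534 with the animal as a block).

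All 3 interactions turn on few mice. Eif4g3 missed without trained 2 and untrained 1 (adjusted p = 0.0672 and 0.0708), and Eif3a and Eif2ak2 passed only with untrained 2 left out, missing without any other mouse (0.0717 to 0.164 and 0.0587 to 0.137). Untrained 2 has no DG library. Without CA3 untrained 1 and DG trained 3 Eif4g3 alone passed, and without all 5 libraries holding both Xist and Y-linked transcripts, which leaves 1 trained CA1 library, none of the 3 did (adjusted p = 0.0615 for Eif4g3, 0.281 for Eif2ak2 and 0.250 for Eif3a). Eif5b, at 853, 902 and 752 in untrained and 841, 841 and 937 in trained CA1, had an interaction of 0.41 (adjusted p = 0.0591). After adjusting for GC content and transcript length Eif2ak2 missed (0.0717), and with upper-quartile scaling Eif3a did (0.0583). The endothelial and CA3 pyramidal marker sums, given above, were both higher in trained CA1 and lower in trained DG. Of 9 neuronal markers tested singly, the interaction passed for the CA3 marker Cpne4 (0.57, adjusted p = 0.0164) and the CA1 marker Man1a (-1.06, adjusted p = 0.0323). Their part in the interactions of members was not tested.

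Between CA1 and CA3 no member's difference with training differed (limma, 0 of 52, with 1 at an unadjusted p under 0.05 and 0.0273% of all genes called). Its smallest p values were those of Eif5b (0.25, adjusted p = 0.705), Eif4e2 (-0.25, adjusted p = 0.751) and Eif4enif1 (0.25, adjusted p = 0.767). Between CA3 and DG none passed either (6 at an unadjusted p under 0.05, 0.164% of all genes called), with Eif4g3 nearest at 0.38 (adjusted p = 0.0886), then Eif3a at 0.24 (0.330) and Eif4a2 at -0.22 (0.339). These intervals are wide, and those of 13, 20 and 11 members lay within 1.25-fold for CA1 against DG, CA1 against CA3 and CA3 against DG.

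**Figure D5:**
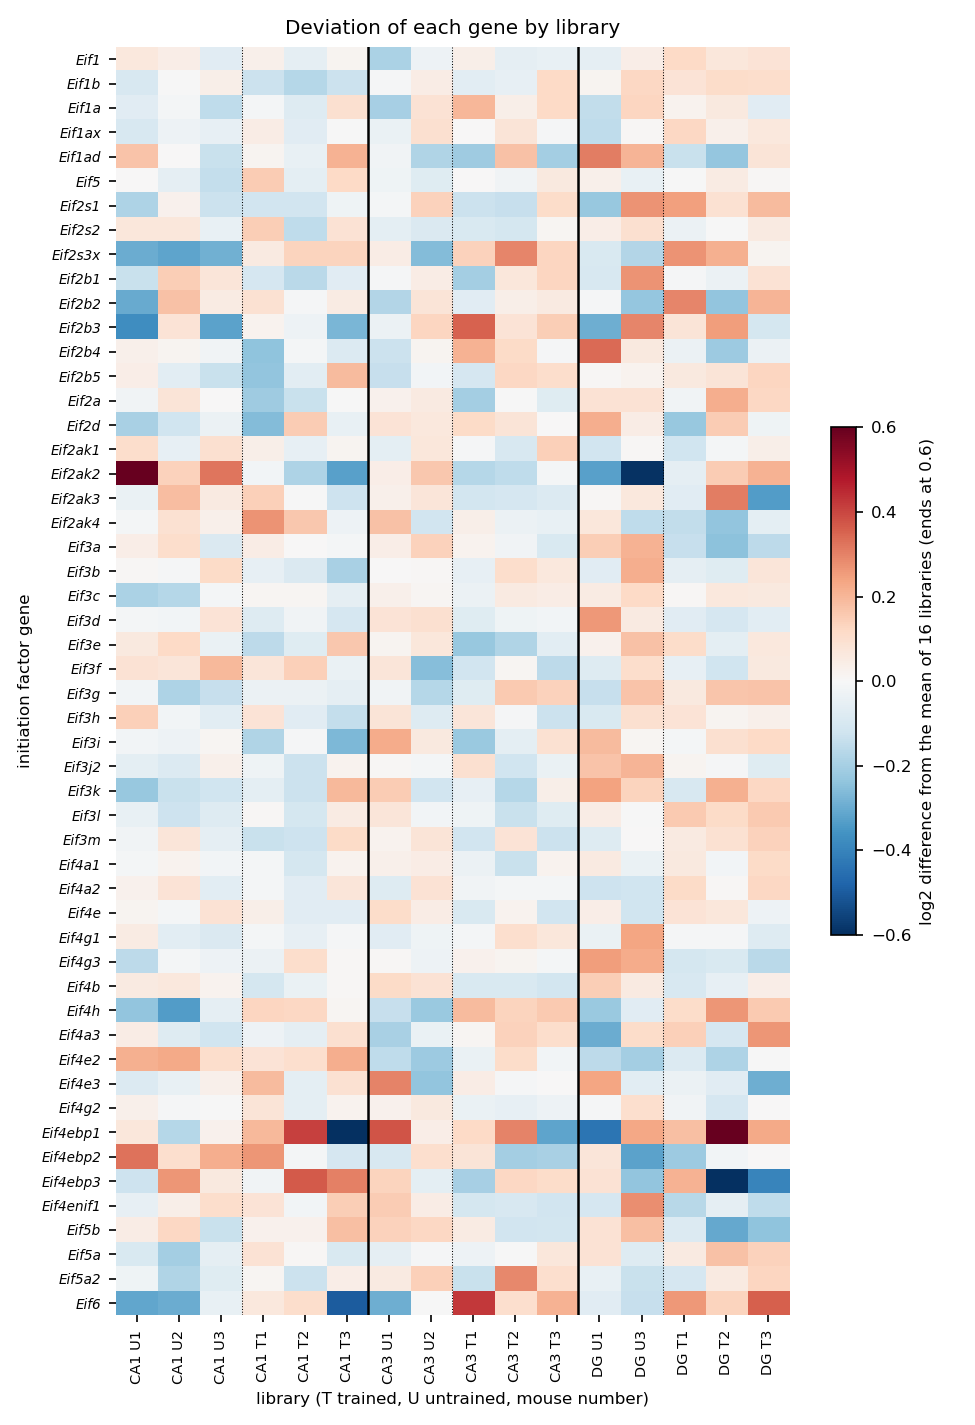
Deviation of each member's log2 value from its mean over the 16 libraries, with libraries in columns by subregion and training and members in rows by role. Most rows are pale (the median SD is 0.122), and the row of Eif2ak2 runs from its highest value of 84.2 in untrained CA1 to its lowest of 30.6 in untrained DG.

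The wider translation machinery was read from a list of other genes. Of 49 further genes (elongation and termination factors, partners of the cap and the poly(A) tail, the mTOR pathway and the integrated stress response), 48 were tested. In CA1, 1 of 48 rose and none fell, 2.08% against 5.23% of all genes. It was Ddx3x, an X-linked helicase that helps scanning, at 1977, 2002 and 1926 in untrained and 2471, 2455 and 2327 in trained libraries (0.30 ± 0.0513, limma adjusted p = 0.00158). Next came Tsc2, a brake on mTOR (0.20, adjusted p = 0.0552), and the neuronal elongation factor Eef1a2 (0.14, adjusted p = 0.0845). None of 48 passed in CA3 or DG (limma, with 5 and 6 at an unadjusted p under 0.05), where 0.852% and 3.39% of all genes did.

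Over all subregions 3 of 48 passed, 6.25%, against 10.3% of all genes. Ddx3x rose by 0.24 ± 0.0409 (adjusted p = 0.000816), and like Eif2s3x it was high in CA3 untrained 1, at 2397 against 1872 to 2123 in the other untrained libraries. Eef1a2 rose by 0.12 ± 0.0357 (adjusted p = 0.0312), and Rps6, the ribosomal protein that S6 kinase phosphorylates, fell by 0.16 (SE 0.0420, adjusted p = 0.0153). None of the 48 passed in a contrast between subregions or in an interaction.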

How the data were processed

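The deposited signal was, per gene and library, the authors' normalized estimated count: reads were aligned with STAR 2.7.10a to a build the submitters' processing notes name GRCm38, quantified with Salmon 1.2.0 and scaled between libraries. Values are not whole, and the normalization itself is not given in the sources used here. The median-of-ratios factor (the median over genes of a value over that gene's geometric mean) was 1 in every library. The values were thus already on that scale. Libraries were made from RNA with an integrity number above 7 after rRNA depletion. Here, limma 3.58.1 in R 4.3.3 was fitted to log2(value + 2) over all genes with a value of at least 10 in at least 3 CA1 libraries or at least 2 libraries of any other fit, with a trend of variance on level and with robust estimation. Adjusted p-values followed Benjamini-Hochberg, with 0.05 as threshold. A count model was not used since the values are not counts. Fits were tested on simulated data with known changes. Python 3.11.15 with pandas 2.3.3 and matplotlib 3.10.9 made the summaries and figures. Per the labels, replicate libraries came from separate mice. Depth is known only roughly, so no interval rests on it.

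The members, gene lists and tests were chosen with earlier results of these data known. In each comparison the members past the threshold are given with full statistics. Where none passed, the 3 with the smallest p are given with their difference and adjusted p. Eif2s3x, Eif1ax, the highest member of each role per kb and pairs that do the same step are given whatever their p. For these the levels and the difference over all subregions are given. Lengths, overlaps and shared 31-base words came from GENCODE on GRCm38, which held 98.0% of the symbols. Alternatives were another pseudocount, scaling, filter or variance estimate, a trend on GC content and length, a shared or blocked fit, covariates and libraries left out, some chosen after the data were seen.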

Additional observations from a re-analysis of the deposited data

Results flagged for a closer look

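The difference between trained and untrained libraries differed between CA1 and DG for 3 members, by the interaction term of a limma fit over all 16 libraries. For Eif4g3 the interaction was 0.4483 on the log2 scale: means in CA1 were 2116 ± 114 untrained and 2257 ± 116 trained (SD, n = 3 each), and in DG 2607 ± 39.0 untrained (n = 2) and 2037 ± 51.6 trained (n = 3). For Eif3a it was 0.3529, with 1749 ± 116 and 1737 ± 34.3 in CA1 against 1953 ± 58.2 and 1521 ± 58.5 in DG. For Eif2ak2 it was -1.1633, with 65.2 ± 16.8 and 41.7 ± 4.66 in CA1 against 33.9 ± 4.65 and 50.9 ± 4.93 in DG. In CA3, Eif4g3 had means of 2194 ± 41.5 untrained and 2228 ± 30.8 trained. Eif2ak2 is the lowest of the 3 by far, and its exons overlap those of Gm26637 on the other strand. In the DG both untrained libraries, and in CA1 all trained ones, belong to the 7 with the most genes listed at 0, and the part of this in the interactions was not tested.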

How the results depend on the processing

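Over all comparisons 172 alternative counts of called members were computed, of which 137 stayed within 1.5 times the reported count. Of 497 alternative values of named members, 417 kept direction and side of the threshold and 75 kept direction but lost the call. A further 4 gained it and 1 reversed (Eif3l between CA3 and DG in untrained libraries only, 0.00768). All 75 lost calls fell on members called in the main fits. The other named members had no call to lose, so the 417 overstates how well calls held. Median-of-ratios scaling is among these settings and left the values as they were, since its factor was 1 in every library. Leaving out each labelled mouse in turn, the members called ranged from 1 to 2 in CA1, 0 to 1 in CA3, 0 to 6 in DG, 2 to 5 for training in all subregions, 0 to 1 between CA1 and DG and 0 to 3 for the interaction of CA1 with DG. In CA3, 1 member was called with all 16 libraries in one fit and 2 with the replicate block. In DG, 2 were called without CA3 untrained 1 and DG trained 3, and 1 after adjusting for GC content and transcript length. Over all subregions, 9 were called after that adjustment, 0 when the sex-linked score entered the fit and 0 with the mean of each mouse (added after the data were seen). Between CA1 and DG, 2 were called after that adjustment and 0 in trained libraries only, and the interaction gave 1 without CA3 untrained 1 and DG trained 3. Without all 5 libraries holding both Xist and Y-linked transcripts (added after the data were seen), 1 member was called in CA1, 2 in DG, 2 over all subregions and 0 in the interaction of CA1 with DG; CA1 then has 1 trained library and CA3 1 untrained one, taken to vary like the rest. The cause was not tested in these cases, other than that leaving out mice leaves fewer samples. No share of all genes is set beside these alternative counts, so they show how the calls vary and are not results about initiation factors. Same-numbered trained and untrained libraries did not deviate together (correlations -0.18 to 0.119 over 7 pairs), nor did libraries labelled as 1 mouse (-0.108 to 0.0921 over 14 pairs). Since libraries labelled as 1 mouse showed no sharing either, these correlations cannot tell whether the numbers pair libraries. With the replicate block, 2, 4 and 3 members were called in CA1, DG and all subregions, with Eif5b in DG at an adjusted p of 0.0823 and Eif3a over all subregions at 0.0648, and with the animal as block Eif2ak2 was at 0.0534 in the interaction. Depth was read only roughly and its effect on single members was not tested.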
